A study of Mus musculus with 6 samples.

Results

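The fibroblast growth factor (FGF) pathway was followed here through 40 protein-coding genes, out of 53801 genes counted in maxillary processes of mouse embryos at E12.5. The genes were chosen by symbol. They comprised the 22 numbered Fgf genes, 5 receptor genes, 10 feedback genes of the Sprouty, Spred and dual-specificity phosphatase families with Il17rd, and the 3 transcription factor genes Etv1, Etv4 and Etv5. Maxillary processes of 3 WT samples were compared with those of 3 wnt1cre; Rosa26Dlx2/- samples, called Dlx2OE. The WT mice were C57BL/6J, and their samples are labeled wild-type. No group is labeled as carrying the Cre or the knock-in allele alone, so Cre alone had no control. The Dlx2OE embryos carried a CAG-driven, 3xFlag-tagged Dlx2 behind a loxP-flanked stop at Rosa26, made on a C57BL/6J background, which wnt1cre switches on in the neural crest lineage. The facial epithelium, the endothelium and the blood of the process do not come from that lineage. The RNA came from littermates, given as 7 in the sample labels, and whether a sample held more than 1 embryo is not stated, so p-values measure the spread between these samples.

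FGFs are secreted proteins that bind tyrosine kinase receptors together with heparan sulfate on the cell surface. The receptors signal mainly through RAS and the MAP kinases, which raise ETS transcription factors such as Etv4 and Etv5, and also raise inhibitors such as Dusp6 and Sprouty that damp the same signal. In the growing face, Fgf8 and Fgf9 are made mainly by epithelium and Fgf10 by mesenchyme, and epithelial FGFs support the survival and growth of the neural crest mesenchyme. Fgf11 to Fgf14 are a separate branch whose proteins stay inside the cell and bind voltage-gated sodium channels, best known in neurons.

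The files held between 26155500 and 31308813 read pairs on genes per sample. A floor of 3 counts stood at 0.0955 to 0.111 CPM, that is, counts scaled to the size of the library, and floors cover counting error only. Dlx2, the overexpressed gene, had 35.04 to 45.2 TMM-scaled CPM in WT and 119 to 131 in Dlx2OE, so no library went against its label. Dlx2OE 3 stood apart from the other libraries in the make-up of its reads. Reads outside genes were 14.7% of its total against 5.03 to 7.82% elsewhere, and the 57-base RNA gene Gm23935 held 41.6% of its length-scaled counts against 1.05 to 6.34%. In log2 CPM of the tested genes, Dlx2OE 3 correlated with Dlx2OE 2 at 0.987. Dlx2OE 1 correlated with Dlx2OE 2 at 0.974 and with Dlx2OE 3 at 0.964. Levels between genotypes are given as TMM-scaled CPM, in which the median log2 fold change of the 17514 tested genes was 0.003. TPM, which divides counts by gene length and scales them over protein-coding genes, served to compare genes within WT. Between genotypes it served only to check the signs of differences.

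In Dlx2OE, 2 of the 34 FGF genes with enough counts for a test fell and none rose. Fgf9, an epithelial ligand, was 1.98-fold lower, and Etv4, an ETS factor raised by FGF signaling, was 1.42-fold lower. Their edgeR adjusted p values, 0.0479 and 0.0449, lay just under the threshold of 0.05. Each call was lost in 9 of 14 recomputations with another setting or with 1 sample left out. Fgf1, Fgf7, Fgf12, Spry2, Dusp6, Etv1 and Etv5 also lay lower in every Dlx2OE sample than in every WT sample but missed the threshold. Fgfr2 and Il17rd lay higher in every Dlx2OE sample and missed it as well. Of all tested genes, 17.3% lay lower without overlap and 16.7% lay higher. The 6 genes left untested were Fgf3, Fgf4, Fgf6, Fgf21, Fgf22 and Fgf23, which had 0 to 21 counts in each sample.

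A gene was called at a p under 0.05 in the quasi-likelihood test of edgeR, adjusted by Benjamini-Hochberg over all 17514 genes. At that threshold 0 of 34 members were higher, against 2.99% of all tested genes, and 2 were lower, against 3.46% of all tested genes. This share is near the background. None passed a log2 fold change beyond 1 as well, which 3.12% of all tested genes did. An unadjusted p under 0.05 was reached by 14 of 34, against 29.5% of all tested genes. The log2 fold change was below 0 in 26 of 34, against 49.7% of all tested genes, with a median of -0.26 against 0.003 for all genes. Levels did not overlap between genotypes in 9 members that were lower, against 17.3% of all tested genes, and in 2 that were higher, against 16.7%. By DESeq2, 6 of the same 34 were lower (Fgf9, Fgf12, Dusp6, Etv1, Etv4 and Etv5), against 7.21% of genes with an adjusted p there, and Fgf13 was higher, against 5.54%.

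**Figure D1:**
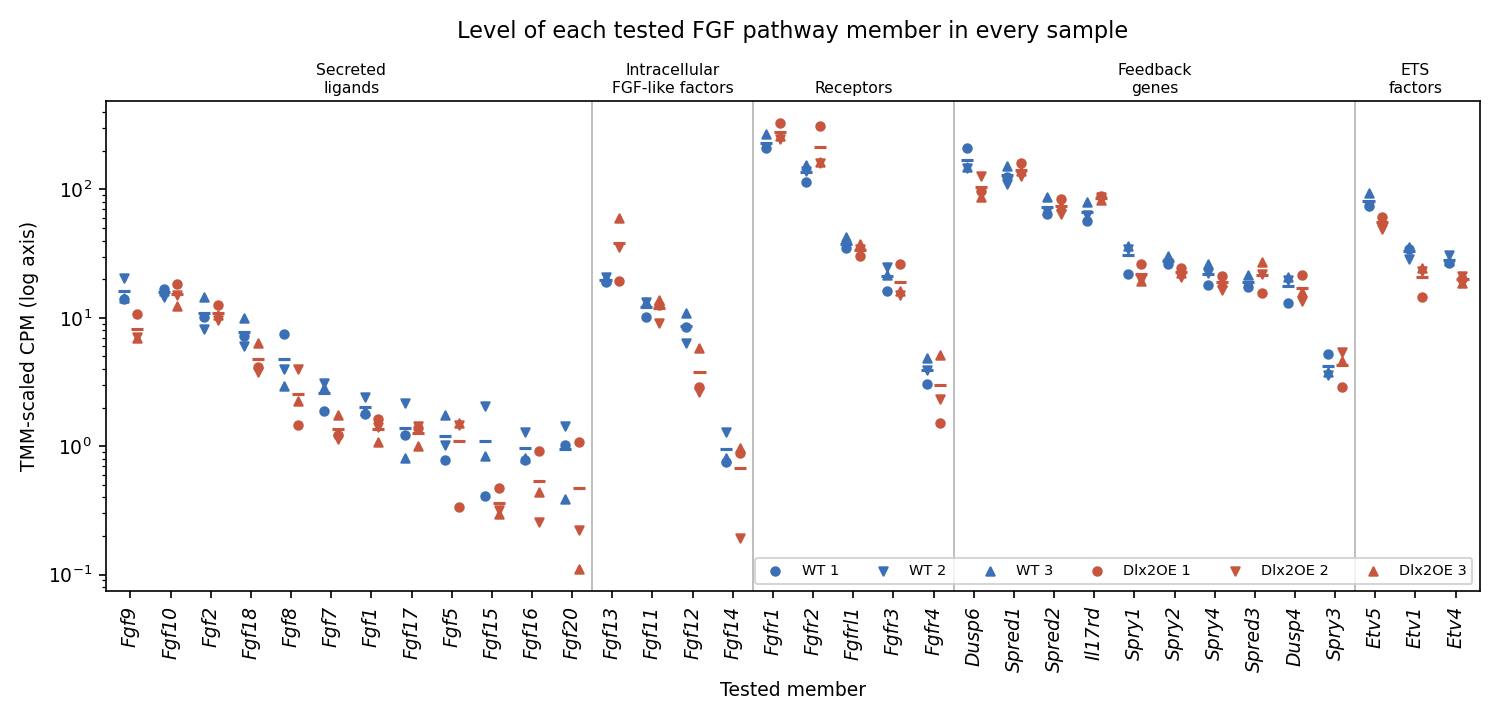
Level of each of the 34 tested genes in every sample, as TMM-scaled CPM on a log axis, by class (blue, WT; red, Dlx2OE; circles, downward and upward triangles for samples 1, 2 and 3; horizontal bars, means). The 3 ETS factors and Fgf9 are separated by genotype, while levels of Fgf10, Fgf2 and the Spred genes intermingle.

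In WT, the members highest per gene length were feedback genes, receptors and Etv5, while Fgfr3, Fgfr4, Spry3 and Spred3 lay below several ligands. Dusp6, a phosphatase that inactivates ERK, was the highest at 175 ± 29.9 TPM (SD, n = 3), and its lowest WT sample exceeded the highest of every other member. Fgfr1 followed at 77.5 ± 20.9 TPM, then Etv5 at 65.3 ± 16.7, Spred1 at 63.1 ± 17.4 and Spred2 at 52.7 ± 14.8 TPM, and these neighbors differed by less than their SDs. Fgfrl1, a receptor without a kinase domain, had 44.9 ± 9.83 TPM and Fgfr2 43.7 ± 11.2 TPM. The other kinase receptors were lower, with 9.64 ± 2.32 TPM for Fgfr3 and 3.70 ± 1.27 TPM for Fgfr4. Among the ligands Fgf18, a growth factor of bone and cartilage, was the highest at 21.7 ± 8.16 TPM. Fgf9 (11.4 ± 2.08 TPM), Fgf10 (11.4 ± 1.72 TPM) and Fgf8 (11.4 ± 4.86 TPM) could not be ordered. Fgf1, Fgf5, Fgf15, Fgf16 and Fgf20 had between 1.16 and 1.89 TPM on average, and the lowest of all tested members was Fgf14 at 0.736 TPM.

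**Figure D2:**
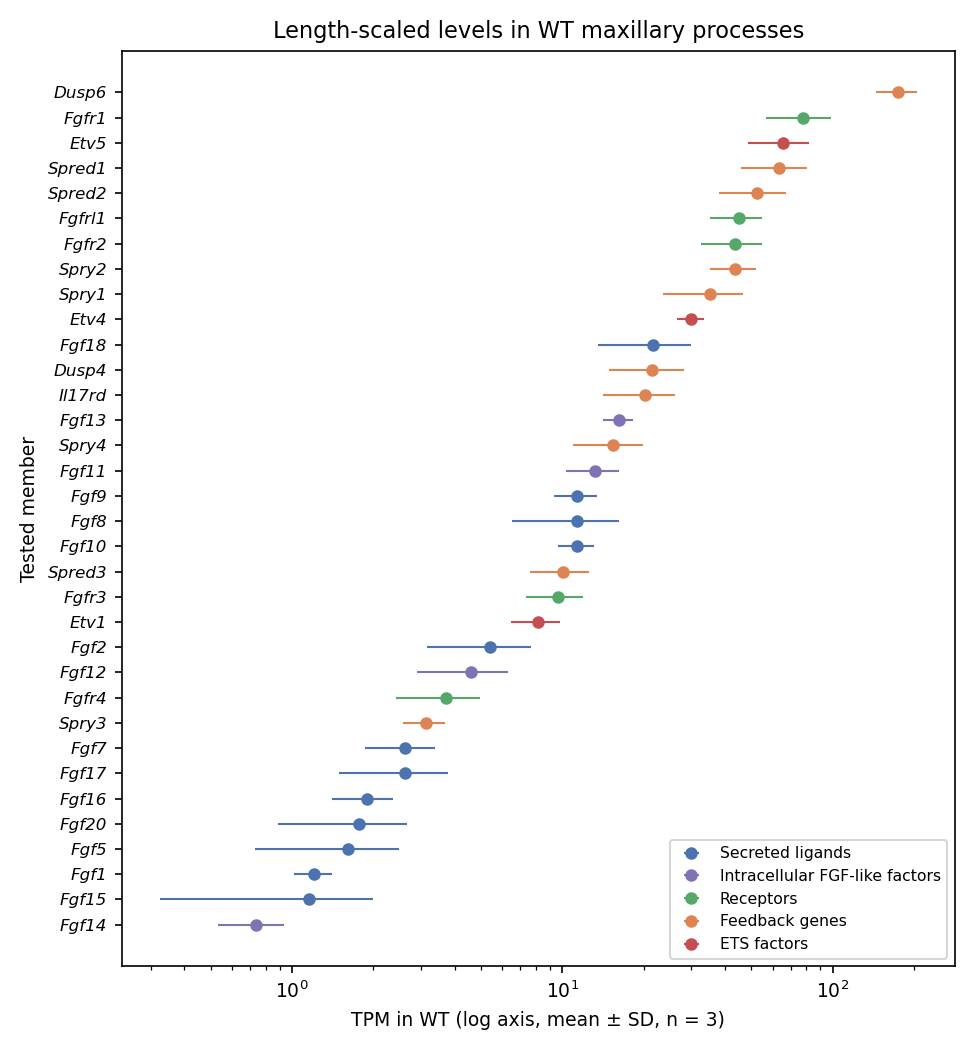
TPM of each tested gene in WT on a log axis, as mean with SD over 3 samples, colored by class. Dusp6 leads at 175 TPM, the highest ligand is Fgf18 at 21.7 TPM, and the error bars of most neighbors in the order overlap.

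Among the secreted ligands, 12 of 18 were tested and Fgf9 was the 1 that fell. All 12 had a log2 fold change below 0 with TMM scaling. TPM taken relative to the median gene gave the same signs, but it recenters the same counts and is no separate check. Fgf2 and Fgf10 turned above 0 when library size alone was used, and Fgf2, Fgf5, Fgf10 and Fgf17 did in TPM as such. Fgf5 and Fgf17 were also above 0 with the length and GC correction, and Fgf17 with the replicate number added to it as a covariate. Fgf2 was above 0 with that covariate alone and with a minimum of 10 counts in every sample. Up to 3 ligands were above 0 when 1 sample was left out. The TPM scale moved the median of protein-coding genes by 0.27 on the log2 scale. The median over the 12 was -0.77, and 4 reached an unadjusted p under 0.05 (Fgf7, Fgf9, Fgf15 and Fgf18), a share near the 29.5% of all tested genes.

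Fgf9 (ENSMUSG00000021974) lies on chromosome 14 of GRCm38, forward strand, from 58070547 to 58112720. In samples 1 to 3 its CPM was 14.0, 20.3 and 14.4 for WT and 10.6, 7.04 and 6.91 for Dlx2OE. All Dlx2OE samples lay below all WT samples, with Dlx2OE 1 the nearest to WT. This gave a log2 fold change of -0.99 (SE 0.235, edgeR adjusted p = 0.0479). This call was lost when any 1 sample other than Dlx2OE 1 was left out, with a highest adjusted p of 0.176, and also with library size alone (0.0552) or a correction for gene length and GC content (0.0687). Without Dlx2OE 3, the library that stood apart in its reads, the log2 fold change was -0.88 (adjusted p = 0.129). The summed CPM of 15 surface epithelium markers was 979 to 1691 in WT and 2182, 731 and 732 in Dlx2OE. The high sum of Dlx2OE 1 was carried by the keratins Krt5, Krt14 and Krt15, with 1196 CPM there against 210 to 440 in WT. Krt5 was higher in every Dlx2OE sample (538, 121 and 147 CPM) than in WT (42.7 to 91.7 CPM). Of the 15 markers, 4 had a log2 fold change above 0 and 11 below. The 3 keratins are among those above 0, so leaving them out lowers Dlx2OE against WT. Over the other 12 markers, a division made after the values were seen, WT had 769 to 1251 CPM, Dlx2OE 1 had 987, within that range, and Dlx2OE 2 and 3 had 465 and 412, below it. The part of the epithelium in the Fgf9 values was not tested.

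The relatives of Fgf9 in its subfamily, Fgf16 and Fgf20, were scarce. Fgf20, a ligand of hair and tooth placodes, had 1.03, 1.43 and 0.385 CPM in WT and 1.08, 0.223 and 0.111 CPM in Dlx2OE, and the last value was 3 counts. Its log2 fold change was -0.99 with an SE of 0.782 (edgeR adjusted p = 0.42). Fgf16 had 0.786 to 1.29 CPM in WT and 0.255 to 0.911 CPM in Dlx2OE (log2 fold change -0.84, adjusted p = 0.281). Both were highest in Dlx2OE 1 among the Dlx2OE samples, as was the epithelial sum with or without these keratins, and its part in these values was not tested. Exons of Micu3, on the opposite strand, overlap 12% of Fgf20.

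The subfamily of Fgf8 holds the main ectodermal signal of the early face. Fgf8 (ENSMUSG00000025219) lies on the reverse strand of chromosome 19 from 45736798 to 45742915. It had 7.48, 3.98 and 2.95 CPM in WT and 1.45, 4.01 and 2.25 CPM in Dlx2OE. The genotypes overlapped, since Dlx2OE 2 exceeded 2 of the 3 WT samples. Its log2 fold change was -0.90 with an SE of 0.457 (edgeR adjusted p = 0.228). Fgf18 had 7.24, 6.04 and 9.94 CPM in WT and 4.15, 3.79 and 6.39 CPM in Dlx2OE, with overlap between Dlx2OE 3 and WT 2 (log2 fold change -0.70, SE 0.28, adjusted p = 0.146). Fgf17 averaged 1.40 ± 0.693 CPM in WT, and the Dlx2OE mean of 1.27 ± 0.239 CPM lay within that SD (n = 3).

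Fgf7 and Fgf10 are mesenchymal ligands that act on the epithelial form of Fgfr2. Fgf7 had 1.88, 3.09 and 2.82 CPM in WT and 1.22, 1.15 and 1.74 CPM in Dlx2OE, without overlap. Its log2 fold change of -0.93 (SE 0.301) did not pass the adjustment (edgeR adjusted p = 0.0943). Fgf10 had 16.9, 14.6 and 16.3 CPM in WT against 18.4, 15.2 and 12.3 CPM in Dlx2OE. Its difference was small and its error narrow, at a log2 fold change of -0.06 (SE 0.175, adjusted p = 0.84).

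The remaining ligands gave no call. Fgf1 had 1.78, 2.42 and 1.89 CPM in WT and 1.62, 1.40 and 1.07 CPM in Dlx2OE, without overlap (log2 fold change -0.57, SE 0.275, edgeR adjusted p = 0.206). Fgf2, a mitogen of mesenchyme, averaged 10.96 ± 3.25 CPM in WT, and 10.9 ± 1.52 CPM in Dlx2OE samples (SD, n = 3). Fgf5 varied more within Dlx2OE, from 0.338 to 1.51 CPM, than between the means. The WT counts of Fgf15, an endocrine FGF, were 12, 62 and 26, against Dlx2OE counts of 14, 10 and 8, which placed Dlx2OE 1 above WT 1. Its log2 fold change of -1.59 was the lowest of the 34 and had an SE of 0.595 (adjusted p = 0.128). It rested on WT 2, without which it was -0.78 (adjusted p = 0.421). Other genes overlap 25.7% of the exons of Fgf15 and 13.2% of those of Fgf2, and the strand setting of the counting is not known. Fgf3, Fgf4 and Fgf15 are neighbors on chromosome 7, with 2930 bp between the first pair and 31287 bp between the second, and Fgf15 was the 1 tested.

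**Figure D3:**
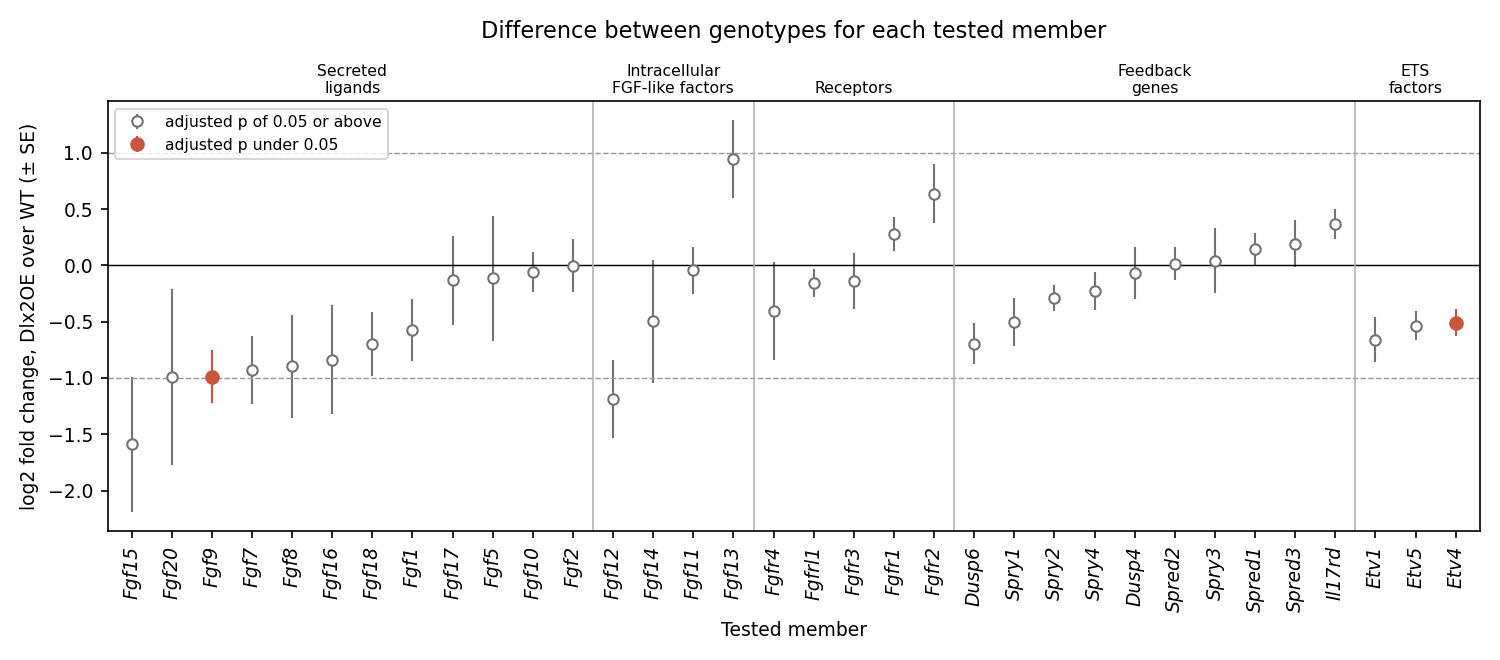
The log2 fold change of each tested gene, Dlx2OE over WT, with its SE from edgeR, by class (filled red, adjusted p under 0.05; dashed lines, log2 fold changes of 1 and -1). With this TMM scaling all 12 secreted ligands and the 3 ETS factors lie below 0 (Fgf2 and Fgf10 lie above it with library size alone), whereas the feedback genes lie on both sides.

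None of the 4 intracellular FGF-like factors passed the test, and the 2 with the largest differences were of opposite sign. Fgf12 (ENSMUSG00000022523), on chromosome 16, had 8.44, 6.40 and 10.8 CPM in WT and 2.87, 2.64 and 5.80 CPM in Dlx2OE, without overlap. Its log2 fold change was -1.19 (SE 0.349, edgeR adjusted p = 0.077). Fgf13 (ENSMUSG00000031137), on the X chromosome, had 18.9, 20.7 and 19.98 CPM in WT and 19.5, 35.4 and 59.96 CPM in Dlx2OE. Dlx2OE 1 lay within the WT range, and the other Dlx2OE samples lay above it (log2 fold change 0.95, SE 0.344, adjusted p = 0.121). The value depended on these libraries, with a log2 fold change of 1.25 without Dlx2OE 1 (edgeR adjusted p = 0.014) and 0.47 without Dlx2OE 3 (adjusted p = 0.306). The summed CPM of 10 neuron markers ranked the Dlx2OE samples in the same way, at 204, 558 and 1172, and was 93.1, 360 and 209 in WT, and its part in the Fgf13 values was not tested. No neuron marker passed the test, although all 10 had a log2 fold change above 0. Fgf11 averaged 12.2 ± 1.81 CPM in WT, with 11.9 ± 2.52 CPM in Dlx2OE samples (SD, n = 3), and Fgf14 had a log2 fold change of -0.50 (SE 0.548).

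None of the 5 receptors passed the test. GENCODE draws Fgfr2 (ENSMUSG00000030849) on chromosome 7, reverse strand, from 130162451 to 133123350. Exons of Ctbp2, on the same strand, overlap 3.04% of the exons in this drawing. Fgfr2 had 114, 140 and 156 CPM in WT and 314, 160 and 164 CPM in Dlx2OE. Every Dlx2OE sample was above every WT sample, but Dlx2OE 2 and 3 lay just above WT 3 and the difference of the means rested on Dlx2OE 1. A log2 fold change of 0.64 resulted (SE 0.264, edgeR adjusted p = 0.155), and 0.24 without Dlx2OE 1. The same library held the highest Krt5, Krt14 and Krt15 levels, while WT 2 exceeded it over the other epithelial markers. How far this touches Fgfr2 was not tested. In bulk tissue a change in the number of cells of a type and a change in RNA per cell cannot be told apart.

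Fgfr1, the main receptor of the mesenchyme, had 209, 213 and 271 CPM in WT and 330, 248 and 263 CPM in Dlx2OE. WT 3 lay above 2 of the Dlx2OE samples, and the log2 fold change was 0.28 (SE 0.154, edgeR adjusted p = 0.261). Fgfr3 averaged 21.02 ± 4.37 CPM in WT, with 19.1 ± 6.07 CPM in Dlx2OE samples (SD, n = 3). Fgfr4 was at 3.94 ± 0.917 and 2.99 ± 1.90 CPM, and Fgfrl1 at 37.9 ± 3.86 and 33.9 ± 3.69 CPM. For these 3 receptors the log2 fold changes lay between -0.40 and -0.14, with SEs of 0.124 to 0.436.

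The feedback genes divided by direction, with 5 of 10 above 0 and 5 below, and none passed the test. Dusp6 (ENSMUSG00000019960) lies on chromosome 10, forward strand, from 99263231 to 99267489. It had 209, 147 and 150 CPM in WT and 96.8, 128 and 88.0 CPM in Dlx2OE. All Dlx2OE samples were below all WT samples. The log2 fold change was -0.70 (SE 0.185, edgeR adjusted p = 0.0609), a level 1.62-fold lower, and DESeq2 gave an adjusted p of 0.00481. Without Dlx2OE 3 the log2 fold change was -0.59 (adjusted p = 0.167). Dusp4, a nuclear phosphatase of the same family, averaged 17.8 ± 4.09 CPM in WT, with 17.0 ± 4.23 CPM in Dlx2OE samples (SD, n = 3).

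Il17rd, also called Sef, encodes a membrane inhibitor of FGF receptors. It had 56.8, 63.4 and 80.2 CPM in WT and 88.9, 87.0 and 82.7 CPM in Dlx2OE. The Dlx2OE samples were all above the WT samples, WT 3 being the nearest. The log2 fold change was 0.37 (SE 0.133, edgeR adjusted p = 0.12), and it passed the test without WT 3 (0.51, adjusted p = 0.0252).

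The Sprouty genes encode inhibitors that act between the receptor and RAS. Spry2 had 26.2, 26.6 and 30.2 CPM in WT and 24.5, 20.95 and 22.4 CPM in Dlx2OE, without overlap (log2 fold change -0.29, SE 0.119, edgeR adjusted p = 0.15). Spry1 had 21.9, 34.4 and 36.3 CPM in WT and 26.4, 19.6 and 19.5 CPM in Dlx2OE, where Dlx2OE 1 exceeded WT 1 (log2 fold change -0.50, SE 0.214, adjusted p = 0.165). Exons of Gm42922 overlap 24.4% of Spry1. Spry4 had a log2 fold change of -0.23 (SE 0.168). Spry3, which GENCODE places on an unlocalized scaffold, had 0.04 (SE 0.288), with 86 to 171 counts per sample. The Spred genes encode related inhibitors of RAS and had log2 fold changes of 0.14 for Spred1, 0.02 for Spred2 and 0.19 for Spred3, none above its SE.

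**Figure D4:**
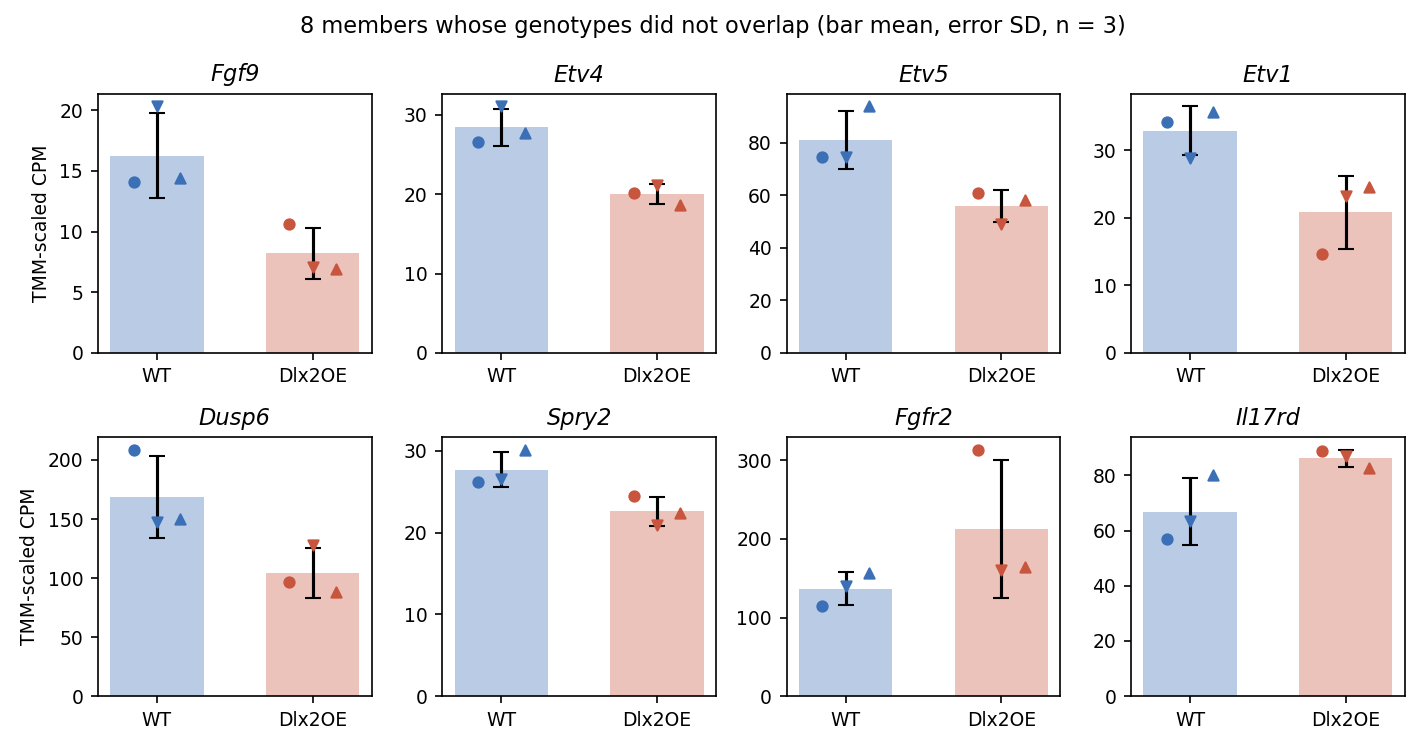
TMM-scaled CPM of 8 of the 11 genes whose genotypes did not overlap, per sample (circle, downward and upward triangle for samples 1, 2 and 3), with the mean as a bar from 0 and the SD over 3 samples. The groups of Etv4 are narrow (SD 2.35 CPM in WT and 1.26 CPM in Dlx2OE), whereas the Fgfr2 mean in Dlx2OE rests on 1 sample at 314 CPM.

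All 3 ETS factors had a log2 fold change below 0, and Etv4 was the 1 that fell. They are transcription factors that FGF signaling raises and that carry part of its output. None of them overlapped between genotypes, against 17.3% of all tested genes that were lower without overlap, and each had an unadjusted p under 0.05, against 29.5%. The median log2 fold change of the 3 was -0.53. Each was below 0 under every scaling tried, TPM included.

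Etv4 (ENSMUSG00000017724) lies on chromosome 11, reverse strand, from 101769742 to 101785371. Its CPM was 26.6, 31.1 and 27.7 in WT and 20.2, 21.1 and 18.7 in Dlx2OE. All WT samples lay above all Dlx2OE samples, with SDs of 2.35 CPM in WT and 1.26 CPM in Dlx2OE. The log2 fold change was -0.51 (SE 0.118, edgeR adjusted p = 0.0449). The call was kept without WT 3 and lost when any other sample was left out, with a highest adjusted p of 0.172, and it was also lost with library size alone (0.0689) or the length and GC correction (0.0571). Without Dlx2OE 3 the log2 fold change was -0.46 (adjusted p = 0.134).

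Etv5 (ENSMUSG00000013089), on chromosome 16, had 74.6, 74.6 and 93.8 CPM in WT and 60.7, 49.0 and 58.0 CPM in Dlx2OE. Its log2 fold change of -0.53 was of the size of that of Etv4 and had a similar error (SE 0.13, edgeR adjusted p = 0.0511). It passed the test without Dlx2OE 1 (adjusted p = 0.0408). Etv1 (ENSMUSG00000004151), on chromosome 12, had 34.2, 28.9 and 35.7 CPM in WT and 14.7, 23.2 and 24.6 CPM in Dlx2OE. The lowest level was in Dlx2OE 1, and the log2 fold change was -0.66 (SE 0.2, adjusted p = 0.0811).

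The sequences before the start sites of Fgf9, Dusp6 and Etv1 are shown because a ligand, an inhibitor and a transcription factor of the pathway were each lower in every Dlx2OE sample. RefSeq promoter windows of GRCm38.p6 matched 29 of the 40 genes, with 38 windows of 300 bases, of which the 250 bases before the start site are printed on the gene's strand. Capitals mark TCAAAG, the reverse complement of the TCF/LEF core CTTTGA, at base -172 of Etv1, and no other searched letters stand in the windows shown.
Fgf9, chr14:58072436-58072685, forward strand: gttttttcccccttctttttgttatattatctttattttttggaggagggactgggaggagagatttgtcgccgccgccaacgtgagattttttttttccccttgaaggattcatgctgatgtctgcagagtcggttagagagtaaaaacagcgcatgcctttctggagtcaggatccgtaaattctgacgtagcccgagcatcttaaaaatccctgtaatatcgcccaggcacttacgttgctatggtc
Dusp6, chr10:99262981-99263230, forward strand: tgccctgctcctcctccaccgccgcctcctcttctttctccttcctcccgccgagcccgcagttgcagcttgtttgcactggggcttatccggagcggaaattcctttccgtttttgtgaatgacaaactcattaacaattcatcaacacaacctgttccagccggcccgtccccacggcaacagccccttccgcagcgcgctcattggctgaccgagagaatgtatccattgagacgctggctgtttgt
Etv1, chr12:38779832-38780081, forward strand: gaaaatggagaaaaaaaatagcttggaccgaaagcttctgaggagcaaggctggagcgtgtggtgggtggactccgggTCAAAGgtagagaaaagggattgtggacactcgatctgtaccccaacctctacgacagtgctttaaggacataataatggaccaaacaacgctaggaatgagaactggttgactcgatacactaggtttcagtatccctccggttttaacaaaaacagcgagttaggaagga
The start sites of the Fgf9 and Etv1 windows lie 2139 and 702 bases inside these genes as GENCODE draws them. Etv1 had another window, not printed, with its start site 4331 bases inside the gene and none of the searched letters. Etv4 was not among the matched genes. On either strand, the ETS core CCGGAA was found in 5 of the 38 FGF windows (13.2%) and in 14.9% of all 32851 windows. The TCF/LEF core was found in 4 of 38 (10.5%) and in 16% of all windows, and the homeodomain core TAATTA in 0 of 38 and in 5.29% of all windows. These are matches of letters and not sites of binding.

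Around the members, 99 genes of 4 hand-written pathway lists were tested, of which 6 rose, 10 fell and 83 did not pass. Of all tested genes, 2.99% were called higher and 3.46% were called lower. The lists were chosen with earlier results of these data known, so no excess over these shares is read from them. Over the 99 genes the median difference was 0.04 on the log2 scale, and those named here are the 12 with the smallest p. The list of target genes of facial FGF signaling had 33 tested, with 2 risen and 5 fallen, and a median of -0.28. Pax9, a transcription factor of palate and teeth, fell from 100.1 ± 15.1 to 46.8 ± 8.18 CPM (SD, n = 3; log2 fold change -1.10, edgeR adjusted p = 0.0141). Shh, an epithelial signal, fell from 16.8 ± 1.98 to 6.79 ± 1.97 CPM (log2 fold change -1.31, adjusted p = 0.0228). Tbx2, a repressor of the T-box family, rose from 103 ± 4.91 to 189 ± 28.6 CPM (log2 fold change 0.87, adjusted p = 0.0134), and Mycn, a growth regulator, from 37.6 ± 3.95 to 59.8 ± 1.67 CPM (0.67, adjusted p = 0.0174). These genes also answer to other signals.

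The list of heparan sulfate genes, whose products make and trim the sugar that FGFs need for binding, had 27 tested, with 2 risen and 5 fallen and a median of 0.03. The sulfotransferase Ndst3 rose from 3.98 ± 0.441 to 12.2 ± 3.45 CPM (SD, n = 3; log2 fold change 1.61, edgeR adjusted p = 0.0149), and Ndst1 rose by a log2 fold change of 0.60 (adjusted p = 0.0336). Genes of 3 core proteins fell, with Gpc3 from 1321 ± 277 to 698 ± 110 CPM (log2 fold change -0.92, adjusted p = 0.0373), Sdc2 by 0.55 on the log2 scale (adjusted p = 0.0333) and Gpc5 by 1.54 (adjusted p = 0.0366). Sulf1, which removes 6-O-sulfates, fell from 556 ± 121 to 316 ± 30.8 CPM (log2 fold change -0.81, adjusted p = 0.0367). Of the 32 adaptor, RAS and MAP kinase genes, Cbl (log2 fold change 0.56, adjusted p = 0.036) and Braf (0.44, adjusted p = 0.0367) rose and none fell. None of 7 coreceptor and FGF-binding genes passed.

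Markers of other cell types differed between the libraries that carry these values. The mesenchyme markers, 15 in number, summed to 5388 to 5667 CPM in WT and 6132 to 6471 CPM in Dlx2OE, with 4 called higher. The 8 erythroid markers summed to 3177 to 4125 CPM in WT and 1842 to 2415 CPM in Dlx2OE, with 3 called lower, and the 7 macrophage markers to 78.2 to 83.1 and 52.2 to 57.9 CPM, with 2 called lower. Of the 15 epithelial markers, Krt8 (log2 fold change -2.11, edgeR adjusted p = 0.00939) and Krt18 (-1.85, adjusted p = 0.0233) fell and none rose. Endothelial markers (10) summed to 353 to 521 CPM in WT and 248 to 390 CPM in Dlx2OE with 1 called lower, and glial (6) and skeletal muscle (7) markers had no call. Foxd3 of the glial list was at 0 in every sample, and Rax and Cryaa of the eye and forebrain list were under 3 counts in each sample. The part of these cell types in the lower Fgf9, ETS and Dusp6 levels was not tested.

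**Figure D5:**
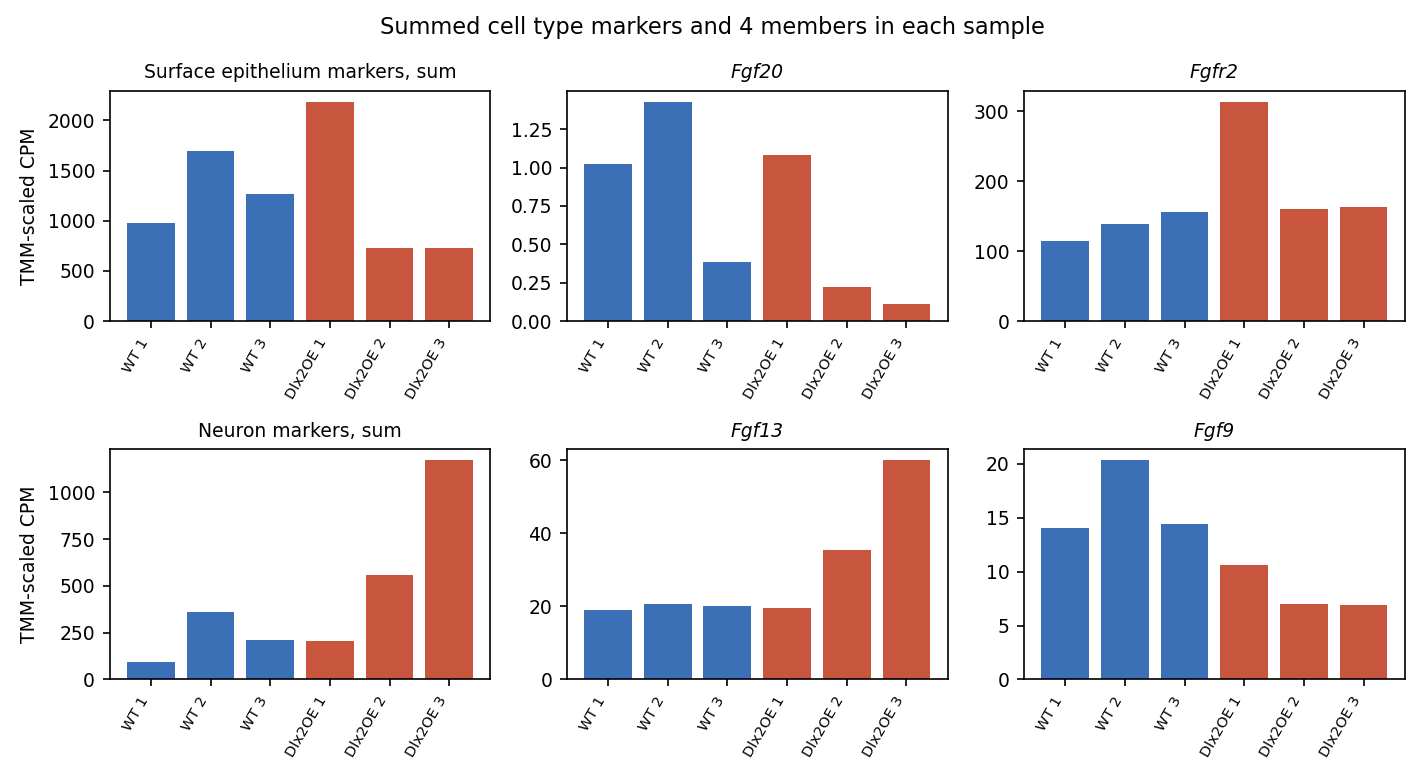
Bars, from 0, give the TMM-scaled CPM in each sample of 2 summed marker lists and of Fgf20, Fgfr2, Fgf13 and Fgf9 (blue, WT; red, Dlx2OE). Dlx2OE 1 holds the highest epithelial sum (2182, of which Krt5, Krt14 and Krt15 make up 1196) and the highest Fgfr2 (314), Dlx2OE 3 the highest neuron sum (1172) and Fgf13 (59.96), and Fgf9 is lower in all 3 Dlx2OE samples.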

How the data were processed

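The authors sequenced poly(A) libraries of maxillary prominences at E12.5, 3 of WT and 3 of Dlx2OE embryos. The labels give 7 littermates as the source and the study's methods another number. Per the labels, reads were mapped to mm10 with STAR 2.7.3a and counted with HTSeq 0.12.4 in union mode, and the authors deposited raw counts per gene. The annotation release and the strand setting are not given in the sources used here. Symbols, positions and exon lengths came from GENCODE M21, which holds 53706 of the 53801 identifiers.

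Genotypes were compared on these counts in edgeR 4.0.16 (R 4.3.3) with no covariate (filterByExpr at a minimum count of 10, TMM, quasi-likelihood F test, Benjamini-Hochberg adjustment). Levels are TMM-scaled CPM. TPM used exon-union lengths and protein-coding genes alone. The alternatives were DESeq2 1.42.0, other scalings and filters, a replicate block, a length and GC correction by loess (span 0.5) and leaving out each sample. A threshold of 1 on the log2 fold change was taken from the study's methods. Counts were simulated for this comparison from the WT means, with 200 of 17514 genes changed by 1 on the log2 scale, up or down. Of these genes edgeR kept 16951, recovered 46.5% of the changed ones and made 6 false calls, so a change of this size can be missed. DESeq2 recovered 58.5% and made 42 false calls among 159. Every tested member was named, and of the pathway lists the called genes with the smallest p, up to 12. The members and lists were chosen with earlier results of these data known. Figures used matplotlib 3.10.9.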

Additional observations from a re-analysis of the deposited data

How the results depend on the processing

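The sign of the log2 fold change of Fgf9, Etv4, Etv5, Etv1, Dusp6, Fgf12 and Fgf7 was the same under each alternative, but their calls were not. Members called lower, 2 with the design described, numbered 6 by DESeq2 and with no filter on low counts, 1 with the replicate block (Fgf12) and 1 with the length and GC correction (Etv1), so without Fgf9 and Etv4, and 0 with library size alone or with that correction and the block. Members called higher, 0 before, numbered 1 by DESeq2 and with no filter. Members past the fold threshold, 0 before, numbered 1 by DESeq2, 2 with no filter and 1 with the block. Pathway genes called higher, 6 before, numbered 10 by DESeq2, 10 with no filter and 0 with the correction and the block. Pathway genes called lower, 10 before, numbered 6 with library size alone, 6 with the block and 3 with the correction and the block. Leaving out 1 sample at a time gave 0 to 1 members higher, 0 to 2 lower and 0 to 2 past the fold threshold, 0 to 11 pathway genes higher and 0 to 11 lower, and Dlx2 between 1.49 and 1.66. Over all genes it gave 39 to 975 called higher and 40 to 1298 called lower, with both lowest counts without WT 2, the most higher without Dlx2OE 1 and the most lower without WT 3. The cause was not tested.

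The calls of Fgf9 and Etv4 were lost in 18 of 28 recomputations, 9 of 14 for each gene. Over all tested members, 17 recomputed differences passed the threshold newly and 437 stayed on their side, nearly all of them of members not called at first. Deviations of samples with the same replicate number correlated at -0.07, -0.21 and 0.07. These values show no pairing by number, but 3 samples per group are too few to exclude one. With the block, Fgf12 was the member called (1 lower, 0 higher). Depth limits the scarce members, since the ligands Fgf5, Fgf15, Fgf16 and Fgf20 and the intracellular Fgf14 had at most 62 counts in each sample.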
